A study of Mus musculus with 16 samples.

Results

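The C/EBP family was followed as 6 genes, Cebpa, Cebpb, Cebpd, Cebpe, Cebpg and Ddit3, chosen by name among the 45706 gene rows of a table of read counts. Each of the 6 symbols matched 1 row. The counts came from RNA-seq of ear-clip skin of 8 mice, all male and of the inbred strain C57BL/6J, with no transgene or treatment named in the labels. Every mouse was sampled at about 24 months (labelled young, 23.8 to 24.4 months) and again at about 30 months (labelled old, 29.0 to 30.1 months), so that the 16 libraries form 8 pairs. The first ear was clipped at the earlier age and the second ear at the later age, and ear and age cannot be told apart. Mice are named by their numbers (13, 14, 21, 29, 43, 50, 64 and 75), and the question was how each C/EBP gene differed between the ages within the same animal.

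CCAAT/enhancer-binding proteins (C/EBPs) are transcription factors with a basic region that binds DNA and a leucine zipper through which they pair with each other and with related factors. Cebpa, Cebpb, Cebpd and Cebpe encode activators, whereas the products of Cebpg and Ddit3 (also called CHOP) act mainly by pairing with other members and with ATF factors. In skin, C/EBPα and C/EBPβ are known for roles in the differentiation of keratinocytes, and in the fat below it C/EBPβ, C/EBPδ and C/EBPα act in succession during the formation of fat cells. C/EBPε belongs to the late maturation of granulocytes, and CHOP is a product of the unfolded protein and integrated stress responses.

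The genes lie on 5 chromosomes in GRCm38 (GENCODE M21). Cebpa (chr7:35119293-35121928, plus strand), Cebpb (chr2:167688915-167690418, plus) and Cebpd (chr16:15887286-15891031, plus) each consist of a single exon without an intron. Cebpe (chr14:54710360-54712174, minus) has 2 exon blocks, Cebpg (chr7:35046422-35056573, minus) has 3 and Ddit3 (chr10:127290774-127296288, plus) has 4. Cebpg and Cebpa are neighbours on chromosome 7, 62719 bases and 4 annotated genes apart. Cebpb shares 312 exon bases with Tmem189 and Cebpd shares 562 with Spidr, both on the opposite strand. Ddit3 shares up to 105 with any of Mars, Gm4189 and a second annotated Ddit3 entry, which has no row in the counts. The library kit does not mark strand, so that reads from these stretches cannot be told apart between the genes.

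RefSeq promoters (GRCm38.p6) were matched for 4 of the 6 genes, Cebpa, Cebpb, Cebpg and Ddit3. The 250 bases before the transcription start are shown for Cebpb and Cebpg, the pair of members whose ratio did not overlap between the ages, and for Cebpa, the most abundant member and the neighbour of Cebpg. Capitals mark matches on either strand to the 7 motifs searched, and each sequence runs 5′ to 3′ along the strand of its gene and ends 1 base before the start.
Cebpb, chr2:167688665-167688914, plus strand: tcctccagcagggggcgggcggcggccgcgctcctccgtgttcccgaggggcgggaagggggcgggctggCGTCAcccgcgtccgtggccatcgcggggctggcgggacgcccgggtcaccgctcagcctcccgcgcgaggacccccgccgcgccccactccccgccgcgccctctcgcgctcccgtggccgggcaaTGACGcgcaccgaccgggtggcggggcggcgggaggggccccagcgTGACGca
Cebpg, chr7:35056567-35056816, minus strand: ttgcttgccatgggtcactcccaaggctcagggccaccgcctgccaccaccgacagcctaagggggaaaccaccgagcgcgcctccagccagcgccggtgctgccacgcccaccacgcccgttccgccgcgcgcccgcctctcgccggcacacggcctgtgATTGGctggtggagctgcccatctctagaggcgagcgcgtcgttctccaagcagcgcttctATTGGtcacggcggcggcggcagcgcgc
Cebpa, chr7:35119043-35119292, plus strand: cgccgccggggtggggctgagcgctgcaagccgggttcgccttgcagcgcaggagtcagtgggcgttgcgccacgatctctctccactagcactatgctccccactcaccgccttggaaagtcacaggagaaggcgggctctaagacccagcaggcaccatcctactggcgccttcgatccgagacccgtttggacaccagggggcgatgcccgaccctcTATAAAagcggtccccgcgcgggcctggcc

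In the Cebpb promoter the capitals are 3 copies of TGACG, the core letters of the element bound by CREB and ATF factors. They lie 180 to 176 bases (read as CGTCA), 53 to 49 bases and 7 to 3 bases before the start. At least 1 copy was present in 17.8% of 32851 promoters of the same length. The Cebpg promoter held 2 CCAAT boxes in reverse (ATTGG), 89 to 85 and 28 to 24 bases before the start, a motif found in 33.8% of promoters. The Cebpa promoter held a TATA box (TATAAA) 30 to 25 bases before the start, found in 12.4%. In the Ddit3 promoter (chr10:127290543-127290792, plus strand) an AP-1 site (TGANTCA) lay 242 to 236 bases and a reverse CCAAT box 77 to 73 bases before the start, and 6.75% of promoters held the AP-1 letters. The full CRE (TGACGTCA, in 1.55% of promoters, and containing the core TGACG), a C/EBP site (TTGCNNAA, 9.56%) and a C/EBP-ATF element (TGATGNAA, 3.45%) had no match in these 4 windows.

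The number of reads assigned to genes was 22967222 to 36162431 per library (median 28922265), with similar medians at 24 months (28877001) and 30 months (29138399). As in a whole piece of ear, several cell types were represented. Summed markers of basal and differentiated keratinocytes, sebaceous gland, fibroblasts, cartilage, muscle, fat, endothelium and immune cells were above 0 in every library. Single markers were at or near 0, such as Ngp of neutrophils (means of 0 and 0.0370 CPM at 24 and 30 months) and Flg of keratinocytes (0.0347 and 0.0123 CPM). The library of mouse 29 at 30 months stood apart. Among 13829 genes with a mean of 5 or more CPM (counts scaled to library size), it held the highest value of the 16 libraries for 19.7% and the lowest for 18.8%, where an even spread would give 6.25%. It also held the highest level of 3 of the 5 well-detected C/EBP genes, and values without this mouse are given for these 5 genes and the lists that follow.

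Levels of different genes were compared as RPKM, which scales the reads to exon length and to library size, over all 16 libraries. Cebpa was the most abundant at 103 ± 14.9 RPKM (mean ± SD, n = 16), and it made up 59.3% to 71.0% of the summed RPKM of the 6 genes in every library (median 64.9%). Cebpb (18.8 ± 2.43 RPKM) and Cebpg (18.8 ± 1.90 RPKM) followed with the same mean over all libraries, but their order in RPKM differed between the ages. Cebpg was above Cebpb in 8 of 8 libraries at 24 months and in 1 of 8, that of mouse 29, at 30 months. The order of genes in RPKM depends on the exon lengths used, and 312 of the 1504 exon bases of Cebpb are shared with Tmem189. How reads from that stretch were counted is not known, and the effect on the order was not tested. Ddit3 came next at 13.04 ± 1.38 RPKM and was below both Cebpb and Cebpg in all 16 libraries. Cebpd was lower at 4.39 ± 2.55 RPKM, and below Ddit3 in all libraries except that of mouse 29 at 30 months. Cebpe was close to 0, at a mean of 0.0162 RPKM. In a whole piece of ear, fewer cells that express a gene and less RNA of it per cell cannot be told apart, which holds for every level given here.

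**Figure D1:**
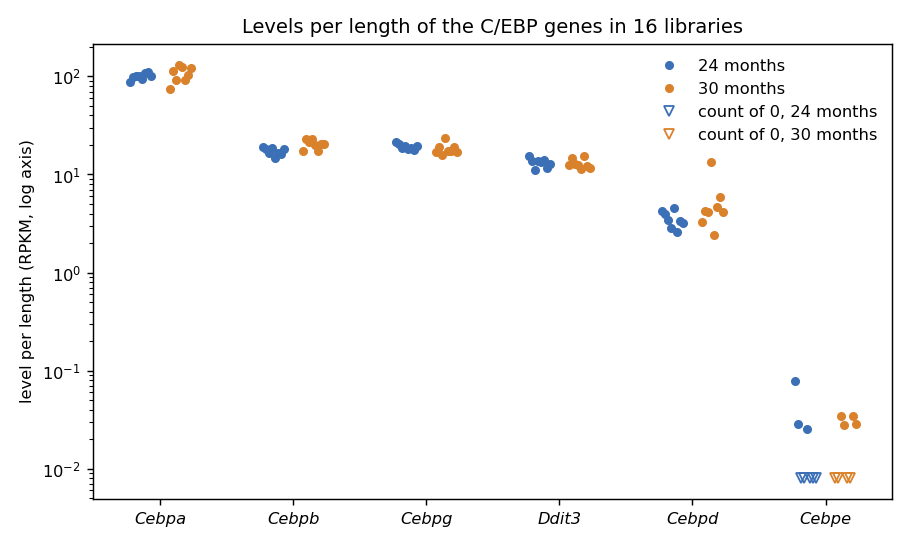
Level per length (RPKM, log axis) of the 6 C/EBP genes, one point for each of the 8 libraries at 24 months and the 8 at 30 months. Open triangles at the foot mark libraries with a count of 0, all for Cebpe, while Cebpa lies near 103 RPKM and Cebpb and Cebpg both near 18.8 RPKM.

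The ages were compared within mice with edgeR's quasi-likelihood test over 21526 genes, with a term for each mouse and adjusted p-values over all of these genes. Of the 6 members, 5 passed the filter on low counts and none of the 5 passed an adjusted p of 0.05. Over all genes the share called was likewise 0%, while 1047 genes were higher (4.86%) and 1546 lower (7.18%) at an unadjusted p under 0.05. Of the members 1, Cebpb, was higher at that level and 0 were lower. Cebpg was also lower at that level when mouse 29 was left out (unadjusted p 0.0492), and Cebpd higher when mouse 43 was left out (0.0451) or the mouse term was dropped (0.0465). Likewise Cebpb was higher in 7 or more of the 8 mice, beside 6.49% of all genes, and no member was lower in as many, beside 8.33%. With DESeq2, which called 240 of 17352 genes (1.38%), no member was called either. No member had separate ranges of CPM at the 2 ages, beside 0.0697% of genes with all libraries at 30 months above those at 24 months and 0.125% with all below.

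**Figure D2:**
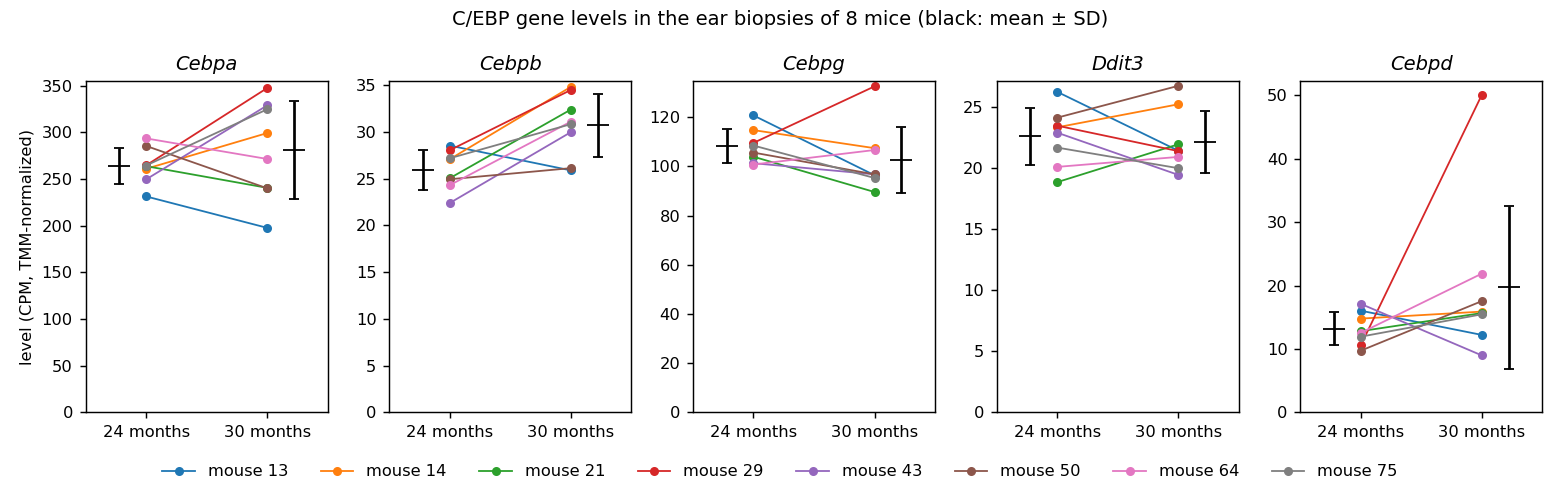
Level (CPM after TMM normalization) of 5 C/EBP genes at 24 and 30 months, with a line for each of the 8 mice and black bars for the mean ± SD of each age. Cebpb is higher at 30 months in 7 of 8 mice, and the highest Cebpd value, 50.1 CPM, belongs to mouse 29.

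Cebpa, which encodes the activator that holds keratinocytes, fat cells and myeloid cells in a differentiated, non-dividing state, ranged from 231 to 293 CPM at 24 months (median 264) and from 198 to 347 CPM at 30 months (median 285). The ranges overlapped, but the later range extended past the earlier one at both ends, with 4 libraries above and 1 below all of those at 24 months. The level was higher at 30 months in 4 mice (14, 29, 43 and 75) and lower in 4 (13, 21, 50 and 64). The log2 fold change was 0.07 ± 0.094 (SE), with an adjusted p of 0.776, and it ranged from 0.03 (without mouse 29 or mouse 43) to 0.12 (without mouse 13 or mouse 50). The coefficient of variation was 7.32% at 24 months and 18.7% at 30 months, where counting error alone would give 1.13% and 1.14%.

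Cebpb encodes an activator induced by cytokines and by cyclic AMP, with targets in inflammation and in keratinocyte differentiation. Its level was 22.4 to 28.5 CPM at 24 months (median 26.0) and 25.9 to 34.8 CPM at 30 months (median 30.9). The ranges overlapped at their edges. Of the 8 libraries at 30 months, 6 lay above all of those at 24 months, and 4 at 24 months lay below all of those at 30 months.

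Within mice, the largest log2 differences of Cebpb were 0.42 in mouse 43 (from 22.4 to 30.0 CPM), 0.37 in mouse 21 and 0.36 in mice 14 and 64. The difference was near 0 in mouse 50 (0.07), and mouse 13 went the other way, from 28.5 to 25.9 CPM (-0.14). The log2 fold change was 0.24 ± 0.0736 (SE), a level 1.18-fold higher, with an unadjusted p of 0.00827 and an adjusted p of 0.288 (edgeR). Without mouse 29 the log2 fold change was 0.24 with an adjusted p of 0.432. Tmem189, which overlaps Cebpb, had a log2 fold change of 0.14 (adjusted p 0.536), and its part in the Cebpb counts was not tested. The summed markers of 12 cell types had Pearson correlations with Cebpb between -0.44 (fibroblast) and 0.35 (sebaceous gland) over the 16 libraries.

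Cebpd, an activator induced by glucocorticoids and acute phase signals that acts early in fat cell formation, was the most variable of the 5 well-detected members. Its level was 9.72 to 17.1 CPM at 24 months (median 12.7) and 8.97 to 50.1 CPM at 30 months (median 15.8). The ranges overlapped, and the value of 50.1 CPM in mouse 29 was far above the next highest, 21.9 CPM in mouse 64. Mouse 29 went from 10.6 to 50.1 CPM, 4.74-fold. Mice 50 and 64 had log2 differences of 0.85 and 0.80, while mouse 43 went from 17.1 to 8.97 CPM (-0.93) and mouse 13 from 16.0 to 12.2 CPM (-0.39).

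The log2 fold change of Cebpd was 0.41 ± 0.286 (SE), higher in 6 of 8 mice, with an adjusted p of 0.580. It was 0.17 without mouse 29 (adjusted p 0.785). The SD of the within-mouse log2 difference was 0.94, above that of 95.7% of 13829 genes, of which the median was 0.25. The same measure stood at the 58.3rd percentile for Cebpa, the 28.5th for Cebpb, the 27.4th for Ddit3 and the 26.4th for Cebpg. Spidr, which overlaps Cebpd on the other strand, was also highest in the library of mouse 29 at 30 months (26.6 CPM, beside 11.1 to 15.7 CPM at 24 months), and its part in the Cebpd counts was not tested.

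**Figure D3:**
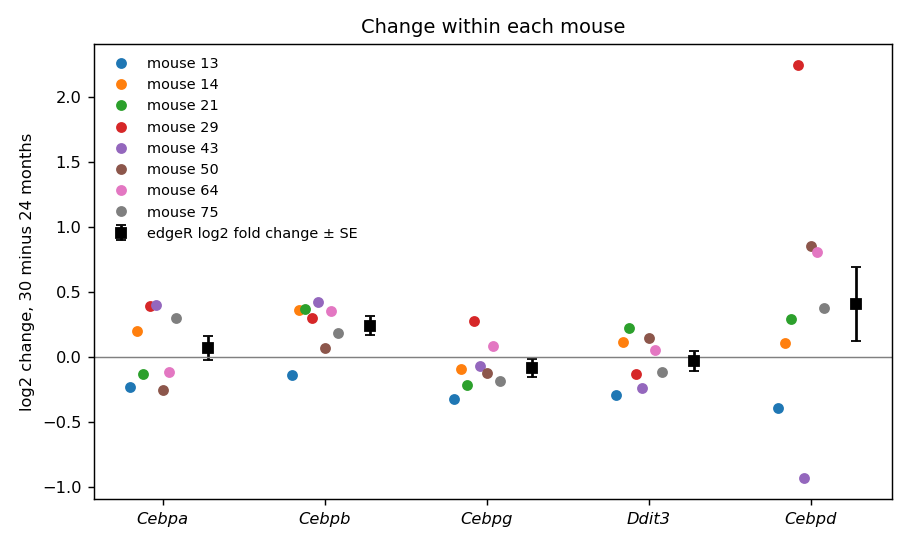
Difference in log2 CPM between 30 and 24 months for each of 5 C/EBP genes, with a point for each of the 8 mice and a black square for the edgeR log2 fold change ± SE. Cebpd spans -0.93 in mouse 43 to 2.25 in mouse 29, while the other genes stay within 0.42 of 0.

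Levels of Cebpd were compared with those of fat cell markers over the libraries. The sum of 8 markers (Adipoq, Plin1, Lep, Cidec, Cfd, Retn, Fabp4 and Lipe) was 145 to 381 CPM at 24 months (median 174) and 90.1 to 898 CPM at 30 months (median 242). It was higher at 30 months in 7 of 8 mice, with a single exception in mouse 43, from 381 to 90.1 CPM, where Cebpd was also lower. In mouse 13 the sum went from 166 to 202 CPM while Cebpd went the other way, from 16.0 to 12.2 CPM. In mouse 29 the sum went from 186 to 898 CPM, and none of the 8 markers was at 0 in any library.

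The Pearson correlation of log2 Cebpd with the log2 marker sum was 0.90 over 16 libraries (Spearman 0.71) and 0.78 (0.65) over the 15 without that library. At 30 months it was 0.97 (n = 8) and at 24 months 0.39 (n = 8, Spearman -0.14). For the summed markers of the other cell types, the Pearson correlations with Cebpd over 16 libraries lay between -0.54 (basal keratinocyte) and 0.59 (endothelial). The libraries share the normalization, and the part of fat cell content in the Cebpd values was not tested. In the library of mouse 29, 5 of the 8 markers were the highest of all libraries, among them Fabp4, a fatty acid carrier, at 529 CPM beside at most 159 elsewhere. The sum is not weighted, and Fabp4 was the largest part of its 898 CPM in this library. Lep, the leptin gene, was the lowest of all libraries there at 1.65 CPM. Endothelial markers were also highest in it (237 CPM in sum) and fibroblast markers lowest (2549 CPM).

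**Figure D4:**
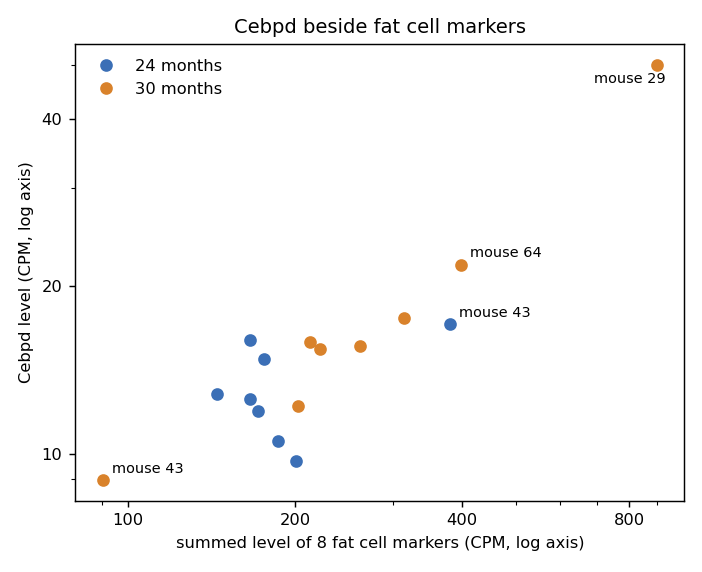
Cebpd level against the summed level of 8 fat cell markers (both CPM, log axes) in 8 libraries at 24 months and 8 at 30 months. Mouse 43 moved from 381 to 90.1 CPM of marker sum between the ages and mouse 29 reached 898 CPM at 30 months.

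Cebpe, the granulocyte member, was at the limit of detection. It had 9 reads in total over 7 of the 16 libraries, with 5 reads in 3 libraries at 24 months and 4 reads in 4 libraries at 30 months. The pooled level was 0.0192 CPM (exact Poisson 95% interval 0.00876 to 0.0364 CPM). In the 9 libraries at 0, a count of 0 allows up to 3 reads, which corresponds to 0.0826 to 0.112 CPM over these 9, and these limits cover counting error only. The gene did not pass the filter on low counts. Fitted without that filter it had a log2 fold change of -0.16 ± 1.14 (SE) and an adjusted p of 0.987 (edgeR), and a difference between the ages was not detectable at this depth.

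Cebpg encodes a small member that lacks a strong activation domain and pairs with other C/EBPs and with ATF4. Its level was 101 to 121 CPM at 24 months (median 107) and 89.6 to 133 CPM at 30 months (median 96.8). The ranges overlapped through 3 libraries. At 30 months 5 of 8 lay below all of those at 24 months, mouse 29 (133 CPM) lay above all, and mice 14 and 64 (both 107 CPM) lay among them. Mice 29 and 64 were higher at 30 months and the other 6 lower, by a log2 difference of -0.07 in mouse 43 to -0.32 in mouse 13. The log2 fold change was -0.08 ± 0.0682 (SE), with an adjusted p of 0.640. Without mouse 29 it was -0.13, with an adjusted p of 0.529.

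Ddit3 encodes CHOP, which blocks other C/EBPs at their usual sites and is induced during stress of the endoplasmic reticulum. Its level was 18.8 to 26.2 CPM at 24 months (median 23.1) and 19.4 to 26.7 CPM at 30 months (median 21.4). The ranges coincided almost fully, and the gene was higher in 4 mice (14, 21, 50 and 64) and lower in 4 (13, 29, 43 and 75). The log2 fold change was -0.03 ± 0.0749 (SE), with an adjusted p of 0.886, and its sign turned when mouse 13 or mouse 43 was left out. Without mouse 29 the log2 fold change was -0.01.

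Since C/EBP proteins act as pairs, the ratios between members within a library were also described, for all 10 pairs of the 5 well-detected genes. The ranges at the 2 ages were separate for 1 pair, Cebpg to Cebpb. The ratio of their RPKM was 1.05 to 1.21 at 24 months and 0.740 to 1.03 at 30 months, so that all libraries at 30 months lay below all at 24 months. It was lower at 30 months in 8 of 8 mice, most in mouse 21 (from 1.11 to 0.740) and least in mouse 29 (from 1.05 to 1.03). Mouse 13, in which Cebpb was lower at 30 months, went from 1.13 to 0.997 with Cebpg lower by more.

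Taken as Cebpb over Cebpg, the ratio was 0.896 ± 0.0392 at 24 months and 1.13 ± 0.131 at 30 months (mean ± SD, n = 8 each), a mean log2 difference of 0.32 ± 0.187 (SD). Without mouse 29 the mean was 0.36. Read against all tested genes, the ratio to Cebpb was separate and lower at 30 months for 366 of 21525 genes (1.70%), and the ratio to Cebpg was separate and higher for 19 (0.0883%). The pair was singled out after its values had been seen, and the difference was not tested. The ratio of Cebpb to Ddit3 was higher at 30 months in 7 of 8 mice (mean log2 difference 0.27 ± 0.217, SD), with overlapping ranges.

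**Figure D5:**
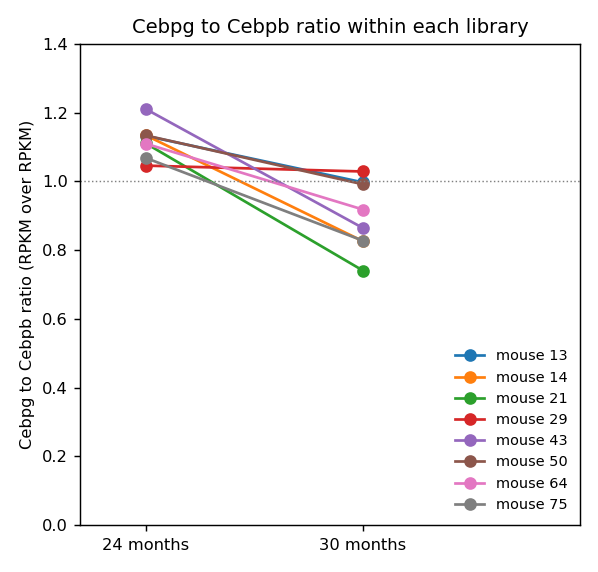
Ratio of the RPKM of Cebpg to that of Cebpb in each library, with a line for each of the 8 mice and a dotted line at equal RPKM. All 8 lines slope down, from 1.05 to 1.21 at 24 months to 0.740 to 1.03 at 30 months.

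Levels of the members were loosely related to each other. Over the 16 libraries the Pearson correlation of log2 levels was highest for Cebpd with Cebpg (0.54, Spearman 0.16), Cebpb with Cebpd (0.46, 0.34) and Cebpa with Cebpb (0.44, 0.39), and lowest for Cebpa with Ddit3 (-0.36, -0.44). Within-mouse differences of Cebpd and Cebpg had a correlation of 0.72 over 8 mice (Spearman 0.43), with mouse 29 highest in both. Cebpa and Cebpg, the neighbours on chromosome 7, had 0.26 over levels and 0.49 over differences.

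Genes with the most similar pattern were sought for each member among 13828 genes, by the Pearson correlation of log2 CPM over the 16 libraries. For Cebpb these were the immediate-early genes Ier3 (0.87) and Junb (0.82), the latter an AP-1 subunit, and Adh7, an alcohol dehydrogenase that oxidizes retinol (0.84). Ier3 was 17.7 ± 1.93 CPM at 24 months and 24.4 ± 3.55 CPM at 30 months (mean ± SD, n = 8 each), a log2 fold change of 0.46 with an adjusted p of 0.141. Adh7 (0.52, adjusted p 0.171) and Junb (0.50, adjusted p 0.141) were likewise not called by edgeR, whereas DESeq2 called all 3 (adjusted p at most 0.000776). The correlations of these 3 genes were 0.79 to 0.84 without the library of mouse 29 at 30 months. The search pooled both ages, so it favours genes that differ between the ages as Cebpb does. The fold changes and calls of these 3 genes are therefore not separate evidence on Cebpb.

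The genes most like Cebpd were Cdo1 (0.94), which encodes cysteine dioxygenase, Sult1a1 (0.93), a sulfotransferase, and Crebrf (0.91), a regulator of CREB3. Cdo1 reached 101 CPM in the library of mouse 29 at 30 months, beside at most 31.0 elsewhere. Without that library the correlations were 0.80, 0.83 and 0.73. For Cebpa the leading genes were Gm6485 (0.90), Adgrf4 (0.89), an adhesion receptor, and Cldn4 (0.88), a tight junction protein. For Cebpg they were Pex13 (0.90), a peroxisomal import factor, Dhtkd1 (0.87), a mitochondrial dehydrogenase, and Gm26788 (0.87), and for Ddit3 Bfar (0.82), Sdhaf2 (0.80) and Gm49342 (0.77).

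Genes that work with or under the C/EBPs were described in 8 lists, read against a median log2 fold change of 0.007 over all tested genes. No gene of any list passed an adjusted p of 0.05 in edgeR. Counts at an unadjusted p under 0.05 are to be read beside the 4.86% of all genes that were higher and the 7.18% that were lower, and each is followed by its range when each mouse was left out in turn. Among 14 bZIP relatives, 1 was higher and 3 lower with an unadjusted p under 0.05 (median 0.03). Without each mouse, 1 to 2 were higher and 0 to 3 lower (1 and 1 without mouse 29), and the median was -0.005 without mouse 50 and 0.10 without mouse 43. Atf4, the stress response factor that pairs with C/EBPβ and C/EBPγ, was 163 ± 12.3 CPM at 24 months and 184 ± 12.6 CPM at 30 months (log2 fold change 0.17, adjusted p 0.333), higher in 7 of 8 mice. Dbp, a clock-controlled factor, was 65.2 ± 23.7 and 47.9 ± 12.9 CPM (-0.40, adjusted p 0.342).

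Of 17 tested regulators of C/EBP factors, such as Tribbles pseudokinases and interleukin-6 signalling, 2 were higher and 1 lower at an unadjusted p under 0.05, and the median was -0.01. Without each mouse, 1 to 3 were higher and 0 to 2 lower (1 and 1 without mouse 29), with medians of -0.02 to 0.02. Socs3, a feedback inhibitor of interleukin-6 signalling, was 24.9 ± 2.56 CPM at 24 months and 37.4 ± 14.2 CPM at 30 months and was higher in 8 of 8 mice. Its log2 fold change was 0.52 ± 0.138 (SE), with an adjusted p of 0.255 in edgeR and 0.0335 in DESeq2. Crtc2, a coactivator of CREB, was 71.4 ± 3.84 and 78.9 ± 4.97 CPM (0.14, adjusted p 0.361).

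The stress pathways around Ddit3 had medians near that of all genes. In the integrated stress response 4 of 29 genes were higher and 1 lower at an unadjusted p under 0.05 (median 0.01), and in the unfolded protein response 0 of 20 were higher and 1 lower (median -0.01). Without each mouse, 3 to 5 genes of the former were higher and 0 to 1 lower (4 and 0 without mouse 29, median 0.02). Of the latter 0 to 1 were lower (0 without mouse 29, median -0.007). The 4 higher genes of the integrated stress response include Atf4, the 1 higher gene of the bZIP relatives. Trib3, its 1 lower gene, is also the 1 lower gene of the regulators, so these counts are not separate between the lists. Bcl2l11, which encodes the death protein BIM, was 15.4 ± 1.34 CPM and 22.2 ± 8.10 CPM (0.47, adjusted p 0.306). The chaperones Pdia4 (-0.20, adjusted p 0.366) and Hyou1 (-0.15, adjusted p 0.529) were at 51.8 ± 4.57 and 58.3 ± 6.08 CPM at 30 months, and that of Hyou1 was -0.08 without mouse 29.

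Among 16 fat cell targets 1 was higher at an unadjusted p under 0.05, and the median log2 fold change was 0.25. The median log2 difference of the list within each mouse had an SD of 0.808 over the 8 mice, above this median. Leaving out 1 mouse gave 0 higher for 7 of the mice, with a median of 0.11 without mouse 29, but 8 higher and a median of 0.47 without mouse 43, the mouse whose marker sum was lower at 30 months. Lpl, the lipoprotein lipase, was 127 ± 27.1 CPM at 24 months and 165 ± 43.1 CPM at 30 months (0.37, adjusted p 0.411). Retn, the resistin gene, was 4.14 ± 2.47 and 7.79 ± 4.53 CPM (0.94, adjusted p 0.508). All 8 fat cell markers described above are on this list, and their part in its median was not tested.

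Of 17 tested acute phase and inflammatory targets, 4 were higher and 1 lower at an unadjusted p under 0.05, and 15 had a log2 fold change above 0 (median 0.52). The median log2 difference of the list within each mouse had an SD of 0.689 over the 8 mice, above this median. Without each mouse 1 to 5 were higher and 0 to 2 lower, with medians from 0.20 (mouse 50 left out) to 0.60 (mouse 13), and 0.41 for mouse 29. Saa3, a serum amyloid gene, was 0 to 0.295 CPM at 24 months and 0.0372 to 6.93 CPM at 30 months, higher in 6 of 8 mice (adjusted p 0.316). Its values at 24 months lay near the limit of detection. Saa3 and Nos2 were among the 4 higher genes, and Nos2 had means of 0.306 and 0.911 CPM at 24 and 30 months. Of 20 listed genes 17 passed the filter on low counts, which can keep a gene through its libraries at 1 age alone. The part of the filter in these counts and medians was not tested. The list shares Socs3 with the regulators and Lcn2 with the granulocyte targets.

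Of 13 tested granulocyte targets 3 were higher and 1 lower at an unadjusted p under 0.05, with a median of 0.50. The median log2 difference of the list within each mouse had an SD of 0.582 over the 8 mice, above this median. Without each mouse 2 to 5 were higher and 1 lower, with medians from 0.30 (mouse 43 left out) to 0.71 (mouse 14), and 0.38 for mouse 29. Mmp9, a gelatinase, was 7.75 ± 2.29 CPM at 24 months and 3.81 ± 1.50 CPM at 30 months and was lower in 8 of 8 mice. Its log2 fold change was -1.07 ± 0.256 (SE), with an adjusted p of 0.222 in edgeR and 0.00690 in DESeq2. Ltf, the lactoferrin gene, was 0.136 ± 0.122 and 0.482 ± 0.380 CPM and higher in 8 of 8 mice (adjusted p 0.268). Its range at 24 months was 0 to 0.390 CPM, near the limit of detection, as 3 reads there correspond to 0.0848 to 0.107 CPM. Ltf and Chil3 were among the 3 higher genes, and Chil3 had means of 0.196 and 1.51 CPM at 24 and 30 months. Of 17 listed genes 13 passed the filter on low counts, which can keep a gene through its libraries at 1 age alone. The part of the filter in these counts and medians was not tested. The sum of 10 neutrophil markers was 9.41 to 65.4 CPM at 24 months and 10.2 to 48.5 CPM at 30 months (medians 12.2 and 15.6), higher in 6 of 8 mice, and its part in these values was not tested. Ngp, one of these markers, was at 0 in all 8 libraries at 24 months.

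Of 15 tested genes of epidermal differentiation 2 were higher and 4 lower at an unadjusted p under 0.05 (median -0.03). Without each mouse 1 to 2 were higher and 3 to 5 lower (1 and 3 without mouse 29), with medians of -0.09 to 0.02 (-0.02 without mouse 29). Krt1, a keratin of the layers above the basal one, was 472 ± 86.9 CPM at 24 months and 1107 ± 704 CPM at 30 months and higher in 8 of 8 mice. Its log2 fold change was 1.01 ± 0.246 (SE), with an adjusted p of 0.222 in edgeR and 0.00138 in DESeq2. Grhl3, a factor of barrier formation, was 101 ± 11.1 and 80.1 ± 12.7 CPM (-0.34, adjusted p 0.268) and lower in 7 of 8 mice. The 8 markers of differentiated keratinocytes are all on this list. Their sum had medians of 20796 CPM at 24 months and 17960 CPM at 30 months and was lower in 6 of 8 mice. Its largest part was Krt10, with means of 11380 and 9021 CPM, whereas Krt1, also in the sum, was higher.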

How the data were processed

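RNA was prepared from ear-clip skin of 8 mice at 2 ages with the TruSeq RNA v2 kit and sequenced as single-end reads. Per the labels, CASAVA 1.8.4, TopHat2 2.1.0 and HTSeq 0.6.1p1 were used with the mm10 genome, and the values the authors deposited are raw counts per gene in each library, without normalization. The strand setting and the annotation release are not given in the sources used here. The 5 summary lines that name no gene held 18.7% to 21.1% of reads and were left out, and 0 columns belonged to other samples. Ages came from the labels, and the study's sample sheet ties libraries of 1 number to 1 mouse.

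Symbols, positions and exon lengths were taken from GENCODE M21, which held 45143 of the 45706 identifiers. The members and the lists were chosen with earlier results of these data known. The counts were fitted with edgeR 4.0.16 in R 4.3.3 (filterByExpr, TMM, quasi-likelihood test, mouse as a block) and adjusted by Benjamini-Hochberg over 21526 genes at a threshold of 0.05. The SE of an edgeR log2 fold change was derived as its absolute value divided by the square root of the F statistic of the test. DESeq2 1.42.0 was an alternative. The script was checked on simulated counts. CPM and RPKM were computed from the counts with TMM library sizes, and correlations and list medians within each mouse used log2(CPM + 0.1). Deviations from the age means had a median correlation of -0.0316 within a mouse (n = 8) and -0.00165 between mice. Other values were computed in Python 3.11.15 with scipy 1.17.1.

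Genes named in the text were the 6 members, the 2 genes with the smallest unadjusted p in each list where none passed the threshold, and the 3 genes most correlated with each member that had a mean of 10 or more counts, among genes with a mean of 5 CPM or more. Ngp, Nos2, Chil3, Fabp4, Lep, Krt10, Flg, Trib3 and the overlapping genes were named after their values were seen. Alternatives were DESeq2 size factors, the DESeq2 Wald test, no filter on low counts, a fit without the mouse term, age in months as a covariate and each mouse left out in turn.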

Additional observations from a re-analysis of the deposited data

Results flagged for a closer look

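In groups of 8 libraries, the highest or lowest value was compared with its nearest neighbour relative to the range of the group, for 15 groups of member levels and within-mouse differences. Dixon's 95% limit for 8 values is passed by chance in about 1 of 20 groups, 0.75 of these 15, and 2 passed it. Both were in the library of mouse 29 at 30 months. Cebpd stood at 50.1 CPM there, with a gap to mouse 64 (21.9 CPM) of 0.686 of the range. Cebpg stood at 133 CPM, with a gap to the next library (107 CPM) of 0.585 of the range. The library also held the highest fat cell marker sum, 898 CPM, whose part in either value was not tested.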

How the results depend on the processing

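None of the 5 tested C/EBP genes was called under any of the 13 alternatives, nor was Cebpe in the fit without a filter. With the pairing left out (no replicate block) 3 genes were called among all genes, and the DESeq2 Wald test called 240, beside 0 in edgeR with the block, and without each mouse in turn the count was 0 to 0. The causes were not tested. The sign of the Ddit3 log2 fold change turned to 0.0185 without mouse 13 and to 0.00496 without mouse 43, in a range of -0.0577 to 0.0185 without each mouse. Over the alternatives the log2 fold change was 0.22 to 0.31 for Cebpb (adjusted p 0.120 to 0.544), 0.03 to 0.12 for Cebpa, 0.17 to 0.60 for Cebpd (lowest without mouse 29, highest without mouse 43) and -0.13 to -0.04 for Cebpg (lowest without mouse 29, highest without mouse 13). In alternatives chosen after seeing the data, the mean log2 difference of the Cebpb to Cebpd ratio went from -0.18 to 0.07 without mouse 29. Cebpe is limited by its depth of 9 reads.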
